A study of Mus musculus with 2 samples.

Results

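The 32 genes described here make cholesterol and fatty acids or control that synthesis, out of 42422 genes in the table for the gonadal somatic cells. They were listed by name and matched to the Ensembl identifiers of the table, and all 32 were found. The list holds 8 genes of the mevalonate chain and 11 that make squalene or turn it into cholesterol. It also holds 6 regulators and sterol carriers and 7 genes of fatty acid synthesis. Cells build cholesterol from acetyl-CoA through mevalonate, farnesyl diphosphate, squalene and lanosterol, and the same acetyl-CoA feeds fatty acid synthesis. Both chains are switched on by the sterol regulatory element binding proteins (SREBPs), which SCAP escorts from the endoplasmic reticulum to the Golgi when sterols are low and which the INSIG proteins hold back when sterols are plentiful. In the foetal gonad the chain also supplies the cholesterol from which Leydig cells make androgens.

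RNA was sequenced from GFP-negative cells that were sorted from E12.5 mouse gonads, fresh or cultured for 24 h or 72 h, with 4 libraries in each of 10 groups. The embryos came from ASMU Swiss mice crossed with Oct4(Pou5fl)-eGFP mice on the 129svJT2 background and are labelled WT, and since the transgene marks germ cells, every other cell of the gonad falls in the sorted fraction. XX and XY cells were taken uncultured and after 24 h or 72 h with the vehicle DMSO, and XY cells also after 24 h or 72 h with 500 nM BGJ398, an FGF receptor inhibitor (FGFRi), or 500 nM PD0325901, a MEK inhibitor (MEKi). Gonads were cultured with their mesonephros, which was cut away before sorting, in a medium with foetal calf serum, and several gonads were pooled for each library. Libraries were made in sets. Set 3 holds both uncultured groups and the 24 h groups with DMSO or MEKi, while set 4 holds all groups at 72 h together with FGFRi at 24 h. A contrast that crosses the sets therefore cannot be told apart from the set.

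The values are counts of unique molecular identifiers (UMIs), tags that let copies of the same molecule be counted once, read from the 3′ end of transcripts and given as CPM (counts scaled to a common library total) with library sizes scaled by TMM. The libraries held 1380707 to 4836550 counts in total (median 2248854). Sex labels held in every library, with at least 1090 *Xist* counts in XX and at most 14 in XY, and with at most 3 *Ddx3y* counts in XX and at least 65 in XY. Summed Sertoli markers were 1498 to 1643 CPM in uncultured XY cells and 146 to 248 in uncultured XX cells, and summed pre-granulosa markers were 41.3 to 52.9 and 1051 to 1314 CPM. A gene was called when its false discovery rate (FDR, by the quasi-likelihood test of edgeR and the Benjamini-Hochberg method over 15125 genes) was below 0.05 and its fold change at least 1.5. All 32 members passed the filter on low counts and were tested. Erythroid markers summed to between 81.3 and 11741 CPM over all libraries and germ cell markers to between 9.79 and 433, so the sort left cells of other kinds. Bulk counts cannot tell fewer cells of a type from less RNA per cell.

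In 26 of 32 members the means of both uncultured groups were below the mean of every cultured group, and the other 6 were *Acss2*, *Elovl6*, *Ggps1*, *Insig2*, *Scap* and *Scd2*. This pattern was not counted over all genes, so how common it is among them is not known here. Summed over the 19 genes of the mevalonate and sterol chains, *Ggps1* on the branch to prenyl groups included, the level was 671 to 752 CPM in uncultured XX cells and 696 to 760 in uncultured XY cells, and no cultured library was below 1320. The lowest cultured group by its mean was XY cells with FGFRi at 72 h, with 1456 ± 104 CPM (SD, n = 4), and the highest was XX cells with DMSO at 72 h, with 2102 ± 198. Summed over the 7 genes of fatty acid synthesis, uncultured XX cells had 847 ± 38.5 CPM and uncultured XY cells 1239 ± 32.8 (SD, n = 4 each). In culture these sums were 1569 ± 79.1 in XX and 1772 ± 43.7 in XY cells at 24 h with DMSO.

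**Figure D1:**
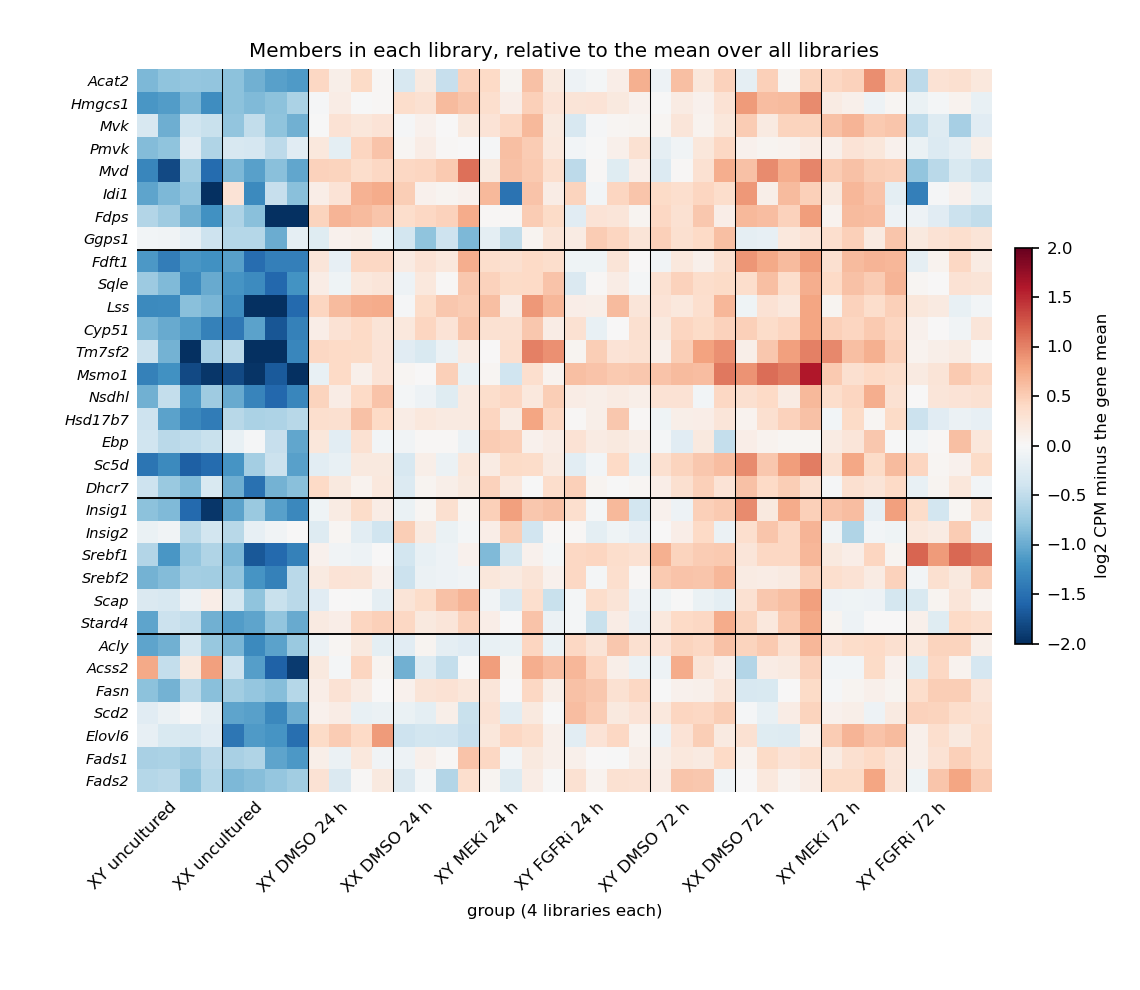
The map shows log2 CPM of each member in each of the 40 libraries minus the gene's mean over all libraries, with colours ending at −2 and 2, lines between the 10 groups and lines between the 4 groups of genes. The 8 uncultured libraries are mostly blue and the 32 cultured libraries mostly pale or red, while *Ggps1*, *Insig2*, *Scap* and *Scd2* are pale in uncultured XY cells and *Acss2* is red in 2 of those 4 libraries.

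The first comparison asks how culture itself goes with these genes, and both groups on either side lie within set 3. In XY cells 26 of 32 members rose between the uncultured state and 24 h with DMSO, and none fell. Over all genes tested, 14.3% were called in this comparison and 8.89% were called higher at 24 h. In XX cells 26 of 32 members rose and none fell, against 7.72% of all genes called and 5.45% called higher. The list was chosen with earlier results of these data known, so setting it beside all genes describes the list and is no independent test. The median log2 fold change of the members was 1.00 in XY and 1.00 in XX cells, where the median over all genes was 0.03 in each. When the test asked for a change beyond 1.5-fold, edgeR's glmTreat called 17 members in XY and 16 in XX cells, and limma's treat after voom with quality weights called 13 and 10. The shares of all genes above are from the quasi-likelihood test, and those for these stricter tests are not given here or below. Without uncultured XY replicate M3 *Mvk* had 0.58 and lost its XY call, and without XY DMSO 24 h replicate M3 or M5 *Ebp* was called in XY cells at 0.64 or 0.59. Culture, medium with DMSO and 24 h of development cannot be told apart here.

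**Figure D2:**
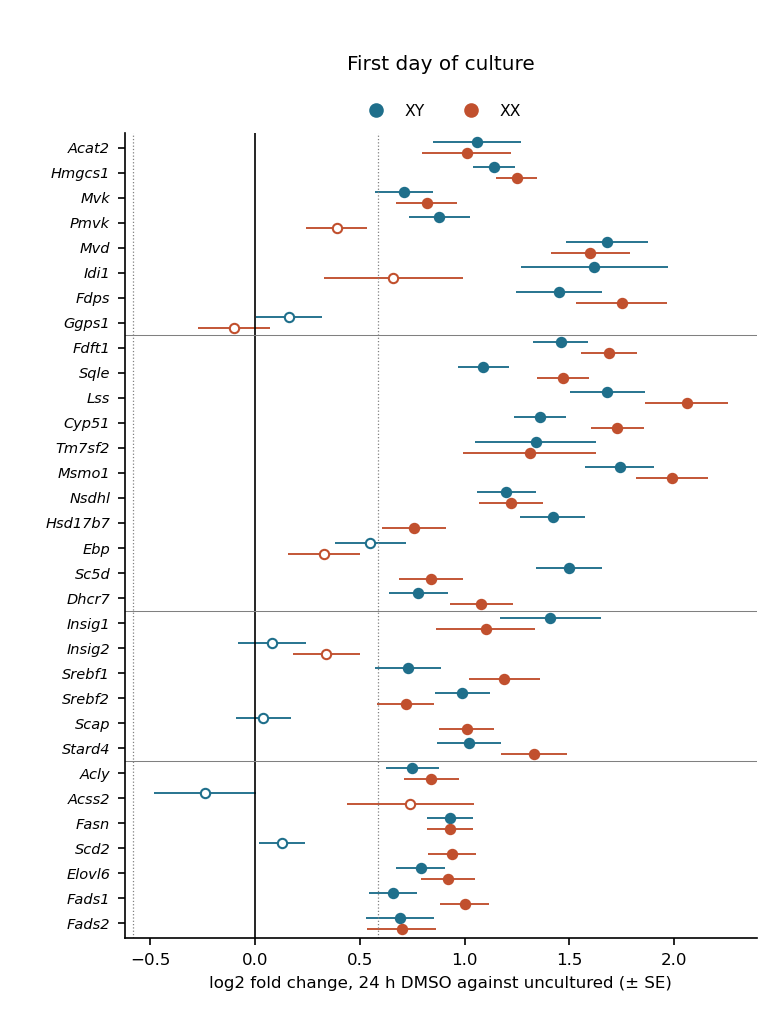
Points are log2 fold changes of the 32 members between uncultured cells and 24 h with DMSO, with standard errors, in XY and XX cells. Filled points were called, dotted lines mark a fold change of 1.5, and the called values run from 0.66 (*Fads1*) to 1.74 (*Msmo1*) in XY and from 0.70 (*Fads2*) to 2.06 (*Lss*) in XX cells.

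In the mevalonate chain, 7 of 8 members rose in XY cells and 5 of 8 in XX cells. *Mvd* encodes the decarboxylase that makes isopentenyl diphosphate. Its uncultured XY libraries had 12.8, 9.10, 19.6 and 10.9 CPM and its XY libraries at 24 h had 43.5, 43.2, 40.6 and 42.4. The groups did not overlap, and the log2 fold change was 1.68 (SE 0.195, FDR 4.59e-10). Uncultured XX libraries had 17.1, 15.0, 17.8 and 15.5 CPM of *Mvd*, and XX libraries at 24 h had 42.4, 42.6, 45.5 and 68.0. They did not overlap either, at a log2 fold change of 1.60 (SE 0.189, FDR 1.18e-09). *Fdps* encodes the synthase of farnesyl diphosphate, where the chain branches to sterols and to prenyl groups. In XX cells it went from 17.1, 14.6, 5.42 and 5.28 CPM to 33.3, 34.9, 35.8 and 43.5, a log2 fold change of 1.75 (SE 0.218, FDR 6.64e-09). In XY cells the log2 fold change of *Fdps* was 1.45 (SE 0.206, FDR 1.26e-07). *Idi1*, the isomerase of isopentenyl diphosphate, had few counts. Uncultured XY libraries had 3.59, 3.98, 4.30 and 1.74 CPM of it and XY libraries at 24 h had 8.20, 8.95, 12.1 and 12.4, which gave a log2 fold change of 1.62 (SE 0.349, FDR 2.86e-04). In XX cells *Idi1* had 8.97, 3.09, 5.42 and 4.15 CPM before culture and 10.5, 7.92, 7.74 and 7.91 at 24 h, which overlapped and were not called at 0.66 (FDR 0.208).

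*Acat2*, the thiolase that joins acetyl-CoA units, rose by 1.06 on the log2 scale in XY (FDR 2.56e-04) and 1.01 in XX cells (FDR 0.00108), with the limit that *Acat3* is a close copy whose reads may be shared. *Hmgcs1*, the HMG-CoA synthase, rose by 1.14 in XY (SE 0.0991, FDR 2.58e-14) and 1.25 in XX cells (SE 0.0980, FDR 1.18e-15). *Mvk*, mevalonate kinase, rose by 0.71 and 0.82. *Pmvk*, phosphomevalonate kinase, rose in XY cells by 0.88 (FDR 3.20e-06), and its XX value was 0.39 without a call. *Ggps1*, which makes the geranylgeranyl diphosphate that anchors small GTPases rather than sterols, had log2 fold changes of 0.16 in XY and −0.10 in XX cells and was called in neither.

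Of the 11 genes that make squalene or turn it into cholesterol, 10 rose in XY and 10 in XX cells. *Msmo1* encodes an oxidase that acts in the removal of methyl groups from the sterol ring. It had 26.2, 29.0, 19.1 and 17.4 CPM in uncultured XY libraries and 60.6, 88.7, 71.8 and 80.9 at 24 h. Its XX libraries had 19.2, 17.2, 20.9 and 16.2 CPM before culture and 68.7, 67.6, 93.3 and 61.3 at 24 h. Every cultured library was above every uncultured one, at log2 fold changes of 1.74 in XY (SE 0.165, FDR 7.19e-13) and 1.99 in XX cells (SE 0.172, FDR 4.77e-14). *Lss* encodes lanosterol synthase, which closes the sterol ring. It had 16.9, 17.1, 22.9 and 21.7 CPM in uncultured XY libraries and 54.9, 63.1, 67.0 and 68.4 at 24 h. In XX cells it had 17.1, 7.95, 9.30 and 13.9 CPM before culture and 39.9, 52.5, 59.0 and 57.7 at 24 h. The log2 fold changes of *Lss* were 1.68 in XY (SE 0.179, FDR 3.82e-11) and 2.06 in XX cells (SE 0.197, FDR 1.18e-12), and the XX value was the largest among the members.

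*Fdft1*, squalene synthase, commits farnesyl diphosphate to sterols. Uncultured XY libraries had 53.3, 45.5, 52.6 and 51.3 CPM and XY libraries at 24 h had 140, 106, 157 and 158. Uncultured XX libraries had 55.5, 41.1, 45.7 and 45.6 CPM and XX libraries at 24 h had 132, 144, 137 and 195. The uncultured libraries of *Fdft1* lay within a narrow range and the cultured ones were all higher, at log2 fold changes of 1.46 in XY (SE 0.131, FDR 8.42e-14) and 1.69 in XX cells (SE 0.133, FDR 1.28e-15). *Cyp51*, the lanosterol demethylase, had 37.6, 48.2, 31.0 and 39.6 CPM in uncultured XX libraries and 118, 136, 123 and 149 at 24 h. Its log2 fold change was 1.73 in XX (SE 0.128, FDR 9.91e-17) and 1.36 in XY cells (SE 0.124, FDR 1.61e-13). *Sc5d*, a sterol desaturase, had 27.7, 31.3, 24.4 and 26.1 CPM in uncultured XY libraries and 65.6, 68.6, 86.8 and 86.7 at 24 h. That was a 2.82-fold rise in XY cells (SE 0.158 on the log2 scale, FDR 2.50e-11), and the XX log2 fold change was 0.84 (SE 0.151, FDR 3.20e-05).

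*Sqle*, squalene epoxidase and a rate-limiting step, rose by 1.09 on the log2 scale in XY and 1.47 in XX cells. *Nsdhl*, a sterol dehydrogenase, rose by 1.20 and 1.22, and *Hsd17b7*, the reductase that acts with it, by 1.42 and 0.76. *Dhcr7*, the reductase whose loss causes Smith-Lemli-Opitz syndrome, rose by 0.78 and 1.08. *Tm7sf2*, a sterol reductase, rose by 1.34 (SE 0.288) and 1.31 (SE 0.318), but it overlaps *Vps51* on the same strand, so its counts are uncertain. *Ebp*, a sterol isomerase, was the member of this group without a call, at 0.55 in XY (SE 0.169, FDR 0.0121) and 0.33 in XX cells.

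Among the regulators, *Insig1*, *Srebf1*, *Srebf2* and *Stard4* rose in both sexes. *Insig1*, itself a target of SREBPs, rose by 1.41 on the log2 scale in XY (FDR 3.12e-05) and 1.10 in XX cells (FDR 0.00134), while *Insig2* had 0.08 and 0.34 and was called in neither. *Srebf2*, which encodes the SREBP that favours cholesterol genes, rose by 0.99 and 0.72, and *Srebf1*, whose product favours fatty acid genes, by 0.73 and 1.19. *Stard4*, which carries sterols between membranes, rose by 1.02 and 1.33. *Scap* had 95.4, 93.3, 107 and 127 CPM in uncultured XY libraries and 98.8, 117, 116 and 102 at 24 h, which overlapped at a log2 fold change of 0.04. In XX cells *Scap* had 90.5, 66.7, 85.2 and 79.9 CPM before culture and 139, 150, 175 and 185 at 24 h, which did not overlap at a log2 fold change of 1.01 (SE 0.132, FDR 2.71e-08).

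In fatty acid synthesis 5 of 7 members rose in XY and 6 of 7 in XX cells. *Fasn*, fatty acid synthase, rose by 0.93 on the log2 scale in XY (SE 0.111, FDR 1.03e-09) and by 0.93 in XX cells (SE 0.111, FDR 1.71e-09). *Acly*, which makes cytosolic acetyl-CoA from citrate, rose by 0.75 and 0.84, and *Elovl6*, the elongase of palmitate, by 0.79 and 0.92. The polyunsaturated fatty acid desaturases *Fads1* and *Fads2* rose by 0.66 and 0.69 in XY and by 1.00 and 0.70 in XX cells. Without XX DMSO 24 h replicate F9, *Fads2* in XX cells had 0.50 and lost its call. *Scd2*, a stearoyl-CoA desaturase of a family of close copies, had 486, 526, 561 and 501 CPM in uncultured XY libraries and 603, 629, 513 and 526 at 24 h, which overlapped. In XX cells it had 275, 267, 233 and 288 CPM before culture and 518, 497, 614 and 418 at 24 h, which did not overlap (log2 fold change 0.94, SE 0.113, FDR 2.66e-09). *Acss2*, which makes acetyl-CoA from acetate, was called in neither sex, at −0.24 in XY and 0.74 in XX cells, but without uncultured XX replicate F2 it was called in XX cells at 1.12 (FDR 0.0255). Its gene overlaps others on both strands, and its counts are uncertain. *Fdps*, *Insig2*, *Srebf1*, *Srebf2*, *Acly*, *Scd2*, *Elovl6* and *Fads1* also overlap other annotated genes on the same strand. The effect of these overlaps on their counts was not tested.

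Whether the change over the first day differed between the sexes was tested as an interaction, and 2 of 32 members passed, against 6.14% of all genes. *Scap* gained 0.97 more on the log2 scale in XX than in XY cells (SE 0.185, FDR 1.77e-04), and *Scd2* gained 0.81 more (SE 0.158, FDR 2.67e-04). Without a filter on low counts 4 members passed, and glmTreat and voom with treat called 0 each. In edgeR's test 9 members had an unadjusted p below 0.05, against 17.9% of all genes. Among the larger differences that missed the criterion were *Hsd17b7* (−0.66, FDR 0.0530), *Sc5d* (−0.66, FDR 0.0536) and *Acss2* (0.98, FDR 0.131). Without XX uncultured replicate F2 or XY DMSO 24 h replicate M2, 4 members passed, and *Sc5d* or *Hsd17b7* passed as a further member without 1 of 6 other libraries (uncultured XX F5, uncultured XY M2 or M3, XX DMSO 24 h F5 or F9, XY DMSO 24 h M3).

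**Figure D3:**
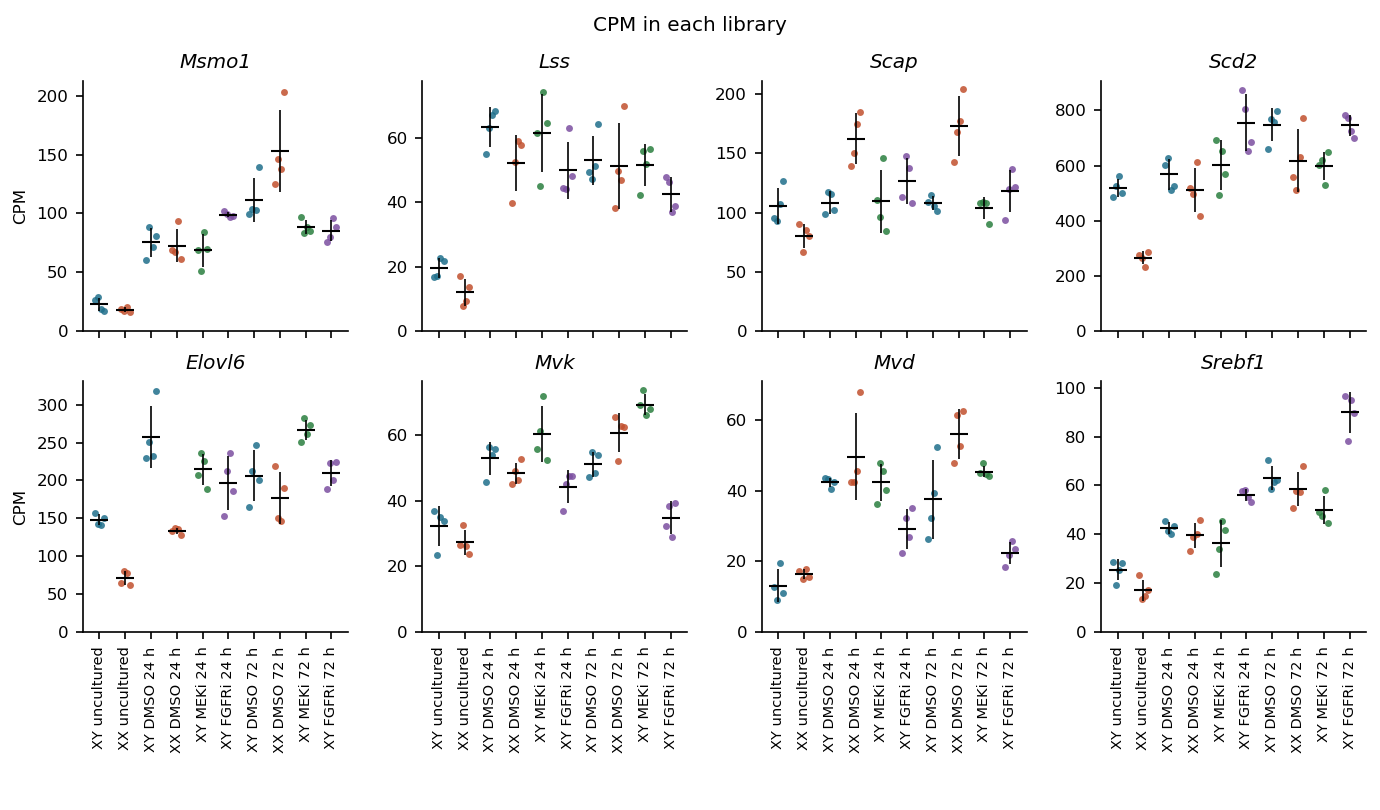
CPM of 8 members in each library of the 10 groups, with the mean and SD as a bar. *Lss* and *Msmo1* are lowest in the 2 uncultured groups, *Scap* is higher in XX than in XY cells in both DMSO pairs, *Scd2* and *Elovl6* are lowest in uncultured XX cells, and *Srebf1* is highest with FGFRi at 72 h, where *Mvk* and *Mvd* are below the other 72 h groups.

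Of 11 other genes of lipid and isoprenoid synthesis, 2 rose in XY and 3 in XX cells over the first day. *Scd1*, another stearoyl-CoA desaturase, had the largest change, with 3.19 ± 1.42 CPM before and 24.5 ± 6.32 at 24 h in XY cells (SD, n = 4 each) and a log2 fold change of 2.93 (SE 0.296, FDR 7.54e-12). The XX value of *Scd1* was 2.26 (SE 0.286, FDR 1.02e-08). *Lpin1*, a phosphatidate phosphatase, rose by 0.63 in XY and 0.92 in XX cells. *Acaca*, acetyl-CoA carboxylase, rose in XX cells by 0.85. Of 13 genes of sterol uptake, efflux, storage and sensing, 12 were tested, of which 2 rose in XY and 5 in XX cells. *Abca1*, which exports cholesterol, rose by 1.32 in XY cells (FDR 9.48e-11), and *Scarb1*, the HDL receptor, by 1.12 in XX cells (FDR 2.66e-09). Other genes of the chain were not analysed here.

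Other cell types moved between the same groups. The summed level of 6 erythroid markers was 9602 to 11741 CPM in uncultured XY cells and 1089 to 5195 at 24 h, and it was 6051 to 10407 and 587 to 1030 CPM in XX cells, with 5 of 6 markers called lower in XY and 6 of 6 in XX cells. Foetal Leydig markers summed to 158 to 310 CPM in uncultured XY cells and 655 to 963 at 24 h, with 4 of 5 tested markers called higher. In XX cells, where *Insl3* had no count in any library of the 3 groups, the Leydig sum was 79.2 to 123 CPM before culture and 156 to 198 at 24 h, with 2 of 5 tested markers called higher and 1 lower. Markers of proliferation summed to 1601 to 1762 CPM in uncultured XY cells and 980 to 1168 at 24 h, with 5 of 8 called lower, and in XX cells 0 of 8 were called. The part of these shifts in the rise of the members was not tested.

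To show what the promoters of members that rose together look like, those of the 4 with the smallest FDR in XY cells are printed, from 250 bases before to 50 after the start site of the canonical GENCODE transcript on GRCm39, in the direction of transcription. Capitals mark matches on either strand to 4 motifs, none of which overlapped a match of another motif in the members: TCACNCCAC, a form of the SREBP site, CCAAT, bound by NF-Y, GGGCGG, bound by Sp1, and the E-box CACGTG.
*Hmgcs1* chr13:120151732-120152031, plus strand: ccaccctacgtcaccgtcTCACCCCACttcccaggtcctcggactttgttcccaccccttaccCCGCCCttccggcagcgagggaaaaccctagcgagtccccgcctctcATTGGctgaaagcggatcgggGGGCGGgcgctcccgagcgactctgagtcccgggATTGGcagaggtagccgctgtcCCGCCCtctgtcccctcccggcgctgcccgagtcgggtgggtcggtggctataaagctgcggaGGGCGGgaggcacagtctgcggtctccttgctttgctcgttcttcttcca
*Fdft1* chr14:63415393-63415692, minus strand: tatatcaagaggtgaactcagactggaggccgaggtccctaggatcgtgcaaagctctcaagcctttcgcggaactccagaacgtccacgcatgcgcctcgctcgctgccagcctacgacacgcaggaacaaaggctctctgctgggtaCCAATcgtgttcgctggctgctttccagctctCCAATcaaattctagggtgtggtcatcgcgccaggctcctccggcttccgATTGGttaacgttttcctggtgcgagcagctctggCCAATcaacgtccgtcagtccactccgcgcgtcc
*Cyp51* chr5:4154697-4154996, minus strand: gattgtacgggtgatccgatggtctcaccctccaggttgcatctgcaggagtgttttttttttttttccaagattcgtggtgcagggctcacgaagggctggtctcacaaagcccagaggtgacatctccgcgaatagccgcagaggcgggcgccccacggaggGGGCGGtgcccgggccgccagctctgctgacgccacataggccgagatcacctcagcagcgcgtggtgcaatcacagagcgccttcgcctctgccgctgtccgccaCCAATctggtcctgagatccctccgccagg
*Msmo1* chr8:65186777-65187076, minus strand: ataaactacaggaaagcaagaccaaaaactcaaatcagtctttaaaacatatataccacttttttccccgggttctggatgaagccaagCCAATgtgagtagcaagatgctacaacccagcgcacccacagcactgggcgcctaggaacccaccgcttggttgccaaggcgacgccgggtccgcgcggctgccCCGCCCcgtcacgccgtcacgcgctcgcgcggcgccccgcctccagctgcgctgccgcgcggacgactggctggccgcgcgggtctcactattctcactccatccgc

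*Hmgcs1* has a match to the SREBP form 232 bases before its start site, with matches to CCAAT and GGGCGG downstream of it. *Fdft1* has 4 matches to CCAAT and none to the other forms, and *Cyp51* and *Msmo1* have 1 match each to CCAAT and GGGCGG. Over the 32 members, TCACNCCAC was found in 3 windows (9.38%), those of *Hmgcs1*, *Acss2* and *Fasn*, against 1.27% of the windows of 12593 protein-coding genes tested. CCAAT was found in 22 members (68.8%) against 39.8%, GGGCGG in 24 (75%) against 58.9%, and CACGTG in 4 (12.5%) against 9.87%. *Acss2* and *Fasn* both hold matches to TCACNCCAC, and over the first day *Fasn* rose in both sexes and *Acss2* was called in neither; their difference was not tested. A match is a description of these letters, not a measured binding site.

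From 24 h to 72 h with DMSO, 0 of 32 members were called in XY cells, against 7.23% of all genes. Of these members 10 had an unadjusted p below 0.05 in edgeR's test, against 23.6% of all genes. DESeq2 called 1 and RLE scaling gave 1. *Msmo1* at 0.56 (FDR 0.00330) and *Srebf1* at 0.58 (FDR 0.00313) were just under a fold change of 1.5. Without XY DMSO 24 h replicate M5 both were called, and 1 of them was called without XY DMSO 24 h replicate M2 or M3 or 72 h replicate M2, M4 or M5. In XX cells 5 of 32 members rose and none fell, against 7.99% of all genes called in either direction. The 24 h groups are in set 3 and the 72 h groups in set 4, so time and set cannot be told apart.

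*Msmo1* had the largest change in XX cells. It had 68.7, 67.6, 93.3 and 61.3 CPM at 24 h and 125, 146, 138 and 203 at 72 h, a log2 fold change of 1.09 (SE 0.139, FDR 2.01e-08), and it was the 1 member that glmTreat and voom with treat each called. *Sc5d* went from 60.6, 82.4, 70.1 and 88.9 CPM to 146, 111, 136 and 154, again without overlap, at 0.85 (SE 0.136, FDR 4.49e-06). *Acly* went from 105, 128, 109 and 105 CPM to 168, 177, 152 and 195, at 0.63 (FDR 1.16e-04). *Msmo1* and *Sc5d* act on the sterol ring, while *Acly* supplies acetyl-CoA to sterols and fatty acids alike. *Ggps1* went from 27.3, 20.3, 26.6 and 19 CPM to 31.3, 31.6, 40.7 and 43.2, at 0.66 (SE 0.164, FDR 0.00314). *Tm7sf2* went from 11.2, 10.6, 12.1 and 14.6 CPM to 14.2, 19.1, 23.0 and 26.3, and here the groups overlapped (0.78, SE 0.257, FDR 0.0346). Without XX DMSO 72 h replicate F11, 2 of the 5 were left, and *Ggps1*, *Tm7sf2* and *Acly* lost their calls. *Tm7sf2* also lost its call without XX DMSO 24 h replicate F4, F5 or F6 or 72 h replicate F7 or F8, and *Srebf1*, at 0.57 with all libraries, was called without 24 h replicate F6 or F9 or 72 h replicate F4 or F8. Macrophage markers summed to 19.3 to 28 CPM in XX cells at 24 h and 23.0 to 89.2 at 72 h, with 4 of 6 called higher, and interstitial markers to 654 to 880 and 1210 to 1766, with 4 of 6 called higher. Germ cell markers summed to 86.1 to 189 and 13.1 to 25.4 CPM, with 4 of 5 tested called lower, and the part of these shifts in the rise of the 5 members was not tested. Of the other pathway genes, *Acat1*, the mitochondrial thiolase, rose by 0.84 in XY and 0.76 in XX cells, and *Scd1* by 0.89 and 0.88.

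XX and XY cells were compared at each time within a set. In uncultured cells 5 of 32 members were called, 1 higher and 4 lower in XX, against 17.3% of all genes called. The 3 with the largest differences belong to fatty acid synthesis. *Elovl6* had 64.5, 80.8, 77.5 and 61.8 CPM in XX and 157, 143, 141 and 151 in XY libraries, with every XY library above every XX library (log2 fold change −1.07, SE 0.130, FDR 6.24e-10). *Scd2*, with the libraries given above, was also lower in XX without overlap, at −0.96 (SE 0.114, FDR 2.94e-10). *Acss2* had 10.7, 6.63, 4.65 and 3.77 CPM in XX and 24.1, 10.2, 16.3 and 25.2 in XY libraries, which overlapped, at −1.54 (SE 0.293, FDR 2.60e-05). *Lss* was lower in XX, at −0.67 (SE 0.225, FDR 0.0215), and *Sc5d* higher, at 0.63 (SE 0.172, FDR 0.00340). Each of these 2 lost its call without XX replicate F3 or F4, when 3 members were left, or without XY replicate M5, and *Lss* also without XY replicate M6. *Srebf1*, at −0.57 with all libraries, was called without XX replicate F2 or XY replicate M3 or M5, *Fdps* without XX replicate F2, *Dhcr7* without XY replicate M5 and *Hsd17b7* without XY replicate M2. GlmTreat called 3 members, *Elovl6*, *Scd2* and *Acss2*, and voom with treat called 2, *Elovl6* and *Scd2*.

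**Figure D4:**
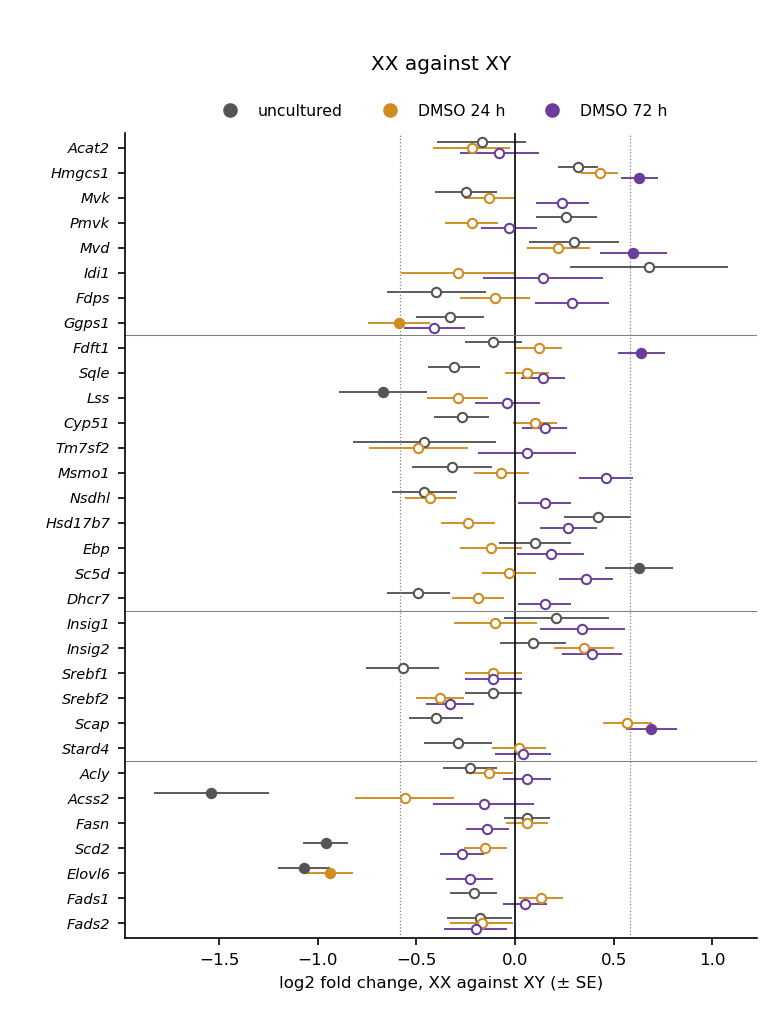
Points are log2 fold changes of XX against XY cells with standard errors, uncultured and after 24 h or 72 h with DMSO, with filled points called and dotted lines at a fold change of 1.5. *Elovl6* lies at −1.07, −0.94 and −0.23 in that order, and the 4 members called at 72 h lie between 0.60 and 0.69.

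After 24 h with DMSO, 2 of 32 members were called between the sexes, both lower in XX. Over all genes 19.6% were called in either direction. *Elovl6* had 133, 137, 136 and 128 CPM in XX and 229, 251, 232 and 318 in XY libraries, at a log2 fold change of −0.94 (SE 0.117, FDR 9.83e-10). *Ggps1* had 27.3, 20.3, 26.6 and 19 CPM in XX and 29.9, 37.3, 38.1 and 33.4 in XY libraries, at −0.59 (SE 0.158, FDR 0.00241), close to the fold threshold, and the call was lost without XX replicate F5 or F9 or XY replicate M3 or M4. Voom with treat called 0 members and glmTreat 1. In edgeR's test 8 members had an unadjusted p below 0.05, against 35.3% of all genes. *Scap* had a log2 fold change of 0.57 (FDR 2.14e-04), just under the threshold, and was called without XX replicate F4 or F5 or XY replicate M3 or M4. *Acss2* was called without XX replicate F9, at −0.72.

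At 72 h with DMSO, 4 of 32 members were called, all higher in XX, against 20.2% of all genes called in either direction. *Scap* had 143, 168, 177 and 204 CPM in XX and 109, 115, 106 and 101 in XY libraries, without overlap, at 0.69 (SE 0.129, FDR 1.93e-05). *Fdft1* had 219, 200, 183 and 211 CPM in XX and 113, 137, 127 and 147 in XY libraries, at 0.64 (SE 0.120, FDR 2.06e-05). *Hmgcs1* had 512, 438, 440 and 548 CPM in XX and 284, 321, 303 and 348 in XY libraries, at 0.63 (SE 0.0947, FDR 2.13e-07). Each of these 3 genes separated the sexes completely. *Mvd* had 47.8, 61.4, 52.7 and 62.5 CPM in XX and 26.3, 32.3, 39.4 and 52.4 in XY libraries, which overlapped, at 0.60 (SE 0.169, FDR 0.00439). Without XY replicate M2, 1 of the 4 was left, *Scap*, and without XX replicate F11, 2 were left, *Scap* and *Fdft1*. *Mvd* also lost its call without XX replicate F7 or XY replicate M4. The 4 calls were close to a fold change of 1.5, and glmTreat and voom with treat called 0. In edgeR's test 10 members had an unadjusted p below 0.05, against 37.7% of all genes.

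The change in the difference between the sexes from 24 h to 72 h was tested as an interaction, and 1 of 32 members passed, against 2.02% of all genes. *Elovl6* had 219, 150, 147 and 190 CPM in XX and 165, 213, 247 and 200 in XY libraries at 72 h, which overlapped, and the difference between XX and XY moved by 0.71 from 24 h (SE 0.166, FDR 0.00676). Both groups at 24 h are in set 3 and both at 72 h in set 4. Without XX DMSO 24 h replicate F9 or XY DMSO 24 h replicate M3, *Fdft1* and *Nsdhl* also passed. GlmTreat and voom with treat called 0. In edgeR's test 7 members had an unadjusted p below 0.05, against 11.7% of all genes.

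Outside the members, *Me1*, malic enzyme, which makes NADPH for fatty acid synthesis, was lower in XX at each time, with 57.9 ± 6.68 against 254 ± 26.2 CPM before culture (SD, n = 4 each) and log2 fold changes of −2.12, −1.72 and −1.25. *Soat1*, which esterifies cholesterol for storage, was higher in XX at each time, with 991 ± 169 against 222 ± 20.8 CPM at 72 h (SD, n = 4 each) and log2 fold changes of 1.23, 1.78 and 2.16. The sexes also differ in the cells sorted. Interstitial markers summed to 665 to 798 CPM in uncultured XX and 1169 to 1442 in uncultured XY cells, with 4 of 6 called lower in XX, and 6 of 6 were called lower at 24 h and 6 of 6 at 72 h. Of 5 foetal Leydig markers tested, 3, 4 and 2 were called lower in XX in that order, and 1 higher at 72 h. Of 6 endothelial markers 2, 5 and 0 were called lower, and of 8 proliferation markers 5, 1 and 3, with none higher. Of 5 tested markers of mesonephros or duct, 2, 3 and 3 were called higher and none lower. The part of these differences in the values of the members was not tested.

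MEKi was compared with DMSO in XY cells within set 3 at 24 h and within set 4 at 72 h. At 24 h 0 of 32 members were called, against 3.18% of all genes, with a median log2 fold change of 0.06. Each of the other fits, DESeq2 included, called 0. Unadjusted p-values were below 0.05 for 4 members in edgeR's test, against 15.7% of all genes. The largest of those 4 values was *Insig1* at 0.44 (SE 0.211, FDR 0.304), followed by *Sqle* at 0.32, *Hmgcs1* at 0.27 and *Elovl6* at −0.26. Endothelial markers summed to 28.7 to 42.8 CPM with MEKi and 131 to 190 with DMSO at 24 h, with 6 of 6 called lower. Germ cell markers summed to 235 to 433 CPM with MEKi and 98.2 to 145 with DMSO, with 3 of 5 tested called higher. The part of either list in these values was not tested. At 72 h 0 of 32 were called, against 6.44% of all genes, with a median of 0.03, and each of the other fits called 0. Here 9 members had an unadjusted p below 0.05 in edgeR's test, against 26% of all genes. Of the members, 5 had an FDR below 0.05 with folds under 1.5. The share of all genes at that criterion is not given here, so the 5 are described only as single genes.

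The 5 members went both ways. *Mvk* had 69.2, 73.8, 66.2 and 67.9 CPM with MEKi and 47.3, 54.7, 48.4 and 53.8 with DMSO, without overlap, at a log2 fold change of 0.44 (SE 0.133, FDR 0.0205). *Fdft1* had 0.44 (FDR 0.0113) and *Elovl6* 0.37 (FDR 0.0259). *Stard4* had −0.46 (SE 0.145, FDR 0.0282) and *Scd2* −0.32 (FDR 0.0469). The change in the effect of MEKi between 24 h and 72 h was tested as an interaction, and 1 of 32 members passed, against 1.28% of all genes. *Elovl6* with MEKi had 207, 236, 226 and 189 CPM at 24 h, partly below its DMSO libraries, and 251, 282, 262 and 273 at 72 h, all above its DMSO libraries. Its effect moved by 0.64 (SE 0.164, FDR 0.0317). This call was lost without any one of 6 libraries: XY DMSO 24 h M5, MEKi 24 h M1 or M6, DMSO 72 h M2, and MEKi 72 h M3 or M5, with values between 0.51 and 0.63. GlmTreat and voom with treat called 0. In edgeR's test 4 members had an unadjusted p below 0.05, against 13.4% of all genes.

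With FGFRi at 72 h, 1 of 32 members was called against DMSO, against 1.74% of all genes. The median log2 fold change was −0.21 over all members, −0.39 in the mevalonate chain and −0.27 in the squalene and sterol chain. It was −0.02 among the regulators and sterol carriers and 0.03 in fatty acid synthesis. Below 0 were 8 of 8, 10 of 11, 3 of 6 and 3 of 7 members in that order, and 49.9% of all genes were above 0. These shifts by list were not tested. *Mvd* had 18.4, 21.9, 25.8 and 23.5 CPM with FGFRi and 26.3, 32.3, 39.4 and 52.4 with DMSO, without overlap, at −0.72 (SE 0.184, FDR 0.0206). Without DMSO replicate M6 its value was −0.51 (FDR 0.212) and no member was called, and without FGFRi replicate M2 it lost its call to an FDR of 0.0541 while *Fdps* gained one. Without DMSO replicate M2 or FGFRi replicate M4 or M6, *Mvk* was called as well. *Mvk* had 32.2, 38.5, 29.0 and 39.4 CPM with FGFRi, all below the DMSO libraries, at −0.55 (SE 0.141, FDR 0.0210). *Srebf1* had 96.7, 78.2, 95.2 and 89.7 CPM with FGFRi against 70.3, 58.7, 61.3 and 62.3 with DMSO, without overlap, at 0.50 (SE 0.139, FDR 0.0328). The folds of *Mvk* and *Srebf1* were under 1.5. A fit of the FGFRi and DMSO groups alone called *Fdps* (−0.68, FDR 0.0407) in place of *Mvd*. DESeq2 called both, and glmTreat and voom with treat called 0. In edgeR's test 11 members had an unadjusted p below 0.05, against 14.4% of all genes. *Fdps* had −0.67 (SE 0.200, FDR 0.0523).

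**Figure D5:**
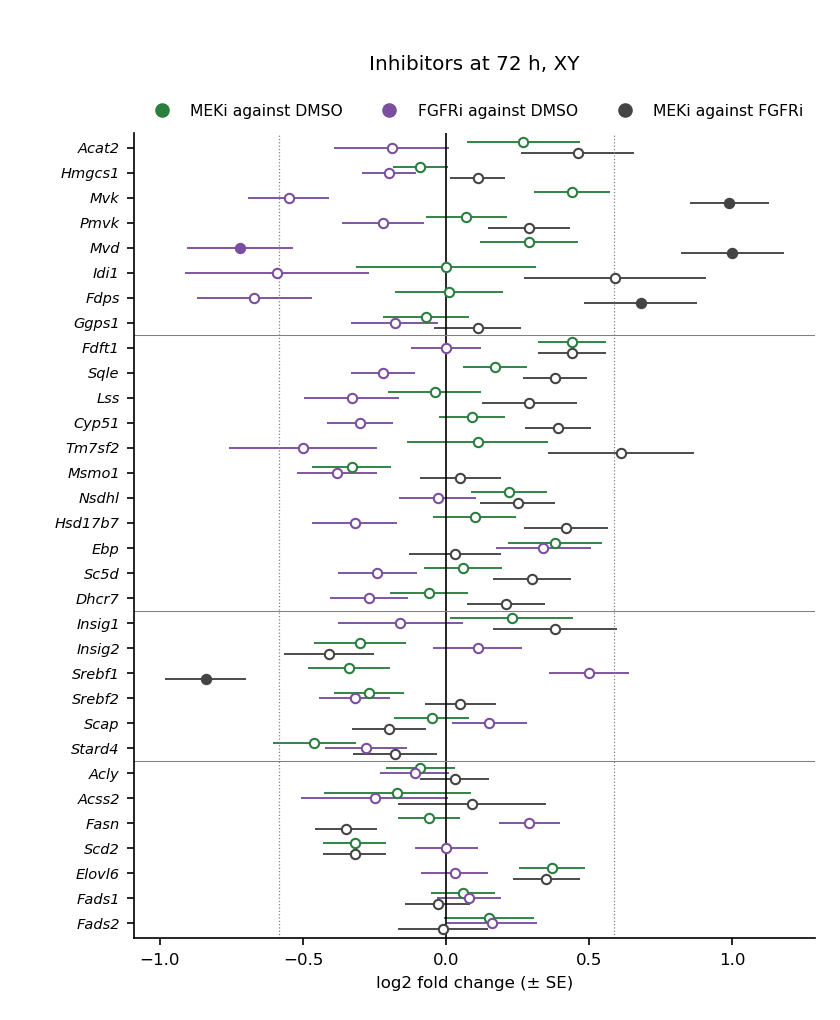
Points are log2 fold changes with standard errors in XY cells at 72 h for MEKi against DMSO, FGFRi against DMSO and MEKi against FGFRi, with filled points called and dotted lines at a fold change of 1.5. The first 2 share their DMSO libraries. *Mvd* with FGFRi lies at −0.72, and between the inhibitors *Mvk*, *Mvd* and *Fdps* lie at 0.99, 1.00 and 0.68 and *Srebf1* at −0.84.

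The inhibitors, which were used at the same dose and time, were compared directly at 72 h, since their comparisons with DMSO share its 4 libraries. Between MEKi and FGFRi 4 of 32 members were called, 3 higher and 1 lower with MEKi, against 6.29% of all genes. *Mvk*, with the libraries given above, was the higher with MEKi, by 0.99 on the log2 scale (SE 0.138, FDR 2.97e-07), and glmTreat called it too. *Mvd* had 45, 47.8, 44.6 and 44.2 CPM with MEKi, all above the FGFRi libraries, at 1.00 (SE 0.180, FDR 4.53e-05). *Fdps* had 27.5, 40.5, 40.2 and 24.3 CPM with MEKi and 24.2, 22.3, 19.3 and 18.5 with FGFRi, at 0.68 (SE 0.198, FDR 0.0167). These 3 enzymes act in the mevalonate chain. *Srebf1* had 49.3, 47.4, 58.1 and 44.8 CPM with MEKi, all below the FGFRi libraries, at −0.84 (SE 0.141, FDR 1.53e-05). Among members under the fold threshold, *Fdft1* (0.44), *Sqle* (0.38), *Cyp51* (0.39) and *Elovl6* (0.35) were higher with MEKi and *Fasn* (−0.35) lower, each with an FDR below 0.05. *Fdps* lost its call without FGFRi replicate M5 or M6 or MEKi replicate M3 or M4, and voom with treat called 0 members. In edgeR's test 16 members had an unadjusted p below 0.05, against 23.1% of all genes.

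*Abcg1*, a sterol exporter, differed most between the inhibitors among the other pathway genes, with 31.6 ± 4.26 CPM with MEKi, 118 ± 25.9 with FGFRi and 53.8 ± 9.88 with DMSO at 72 h (SD, n = 4 each). Its log2 fold change was −1.91 between MEKi and FGFRi (FDR 1.02e-10), 1.15 for FGFRi against DMSO and −0.76 for MEKi against DMSO. *Abca1* rose with FGFRi by 0.64. Cell markers moved in the same libraries. Macrophage markers summed to 15.4 to 25.1 CPM with FGFRi, 27.0 to 39.3 with MEKi and 48.1 to 143 with DMSO at 72 h, and 6 of 6 were called lower with FGFRi and 5 of 6 with MEKi. Leydig markers summed to 842 to 1323 CPM with MEKi, 535 to 985 with FGFRi and 409 to 614 with DMSO, and 4 of 5 tested were called higher with MEKi against DMSO. Sertoli markers summed to 558 to 764 CPM with MEKi and 910 to 1554 with FGFRi, and 4 of 6 were called lower with MEKi against FGFRi. The part of these shifts in the values of the members was not tested.

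At 24 h 0 of 32 members were called between FGFRi and DMSO, against 3.21% of all genes. FGFRi is in set 4 and DMSO in set 3 at this time, and the drug and the set cannot be told apart. Unadjusted p-values in edgeR's test were below 0.05 for 11 members, against 17.1% of all genes. Each of the other fits called 0, while 1 member was called without FGFRi replicate M5, *Mvd* at −0.66 (FDR 0.0372). *Mvd* had −0.54 with all libraries (SE 0.174, FDR 0.0518). *Scd2* had 0.41, *Acly* 0.39 and *Elovl6* −0.38, each with an FDR below 0.05. Between 24 h and 72 h with FGFRi, which lie within set 4, 1 of 32 members was called, against 6.72% of all genes. *Srebf1* had 57.6, 58.3, 55.1 and 53.3 CPM at 24 h and 96.7, 78.2, 95.2 and 89.7 at 72 h, without overlap, at a log2 fold change of 0.68 (SE 0.142, FDR 4.24e-04). GlmTreat and voom with treat called 0 members. In edgeR's test 7 members had an unadjusted p below 0.05, against 19.4% of all genes.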

How the data were processed

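RNA was measured in 40 libraries of sorted gonadal somatic cells. The authors deposited whole-number counts of UMIs per gene, made with a 3′ method in which barcoded reads were aligned, assigned to genes by strand and collapsed by UMI with 1 mismatch tolerated, and the counts of 2 sequencing lanes were added. The strand setting is given for the germ cell libraries and was taken to hold here. Groups came from library names in the labels. The 24 h MEKi library M2 is missing from the label of its sample and was placed by the deposited barcode list.

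Counts were filtered with filterByExpr, scaled by TMM and fitted over all 40 libraries with 1 coefficient per group by edgeR's robust quasi-likelihood test (edgeR 4.0.16, limma 3.58.1, R 4.3.3). Tests were two-sided. Benjamini-Hochberg adjustment ran over 15125 genes, and a call needed an FDR below 0.05 and a fold of at least 1.5. The tests covered 13 comparisons of 2 groups and 3 of differences. CPM are from TMM-scaled library sizes, and SDs are over 4 libraries, each a pool of gonads, so p-values measure the spread between such pools.

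All 32 members are named. Values per library are given for called members with a mean of at least 5 CPM, at most 6 per comparison by size of change. The members and all other gene lists were chosen with earlier results of these data known. Alternatives were RLE scaling, no filter on low counts, DESeq2 1.42.0, glmTreat, voom with quality weights and treat as in the study, a fit of the compared groups alone, a block for the replicate number, and fits that left out 1 library at a time. The quasi-likelihood fit was tested on simulated data for the contrast of MEKi against DMSO at 72 h. The alternatives and other contrasts were not tested in this way. Promoter windows came from the GRCm39 genome with GENCODE M39, which held 40391 of 42422 identifiers of the table.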

Additional observations from a re-analysis of the deposited data

Results flagged for a closer look

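In 14 of the 320 combinations of member and group, 1 library of the 4 lay apart from the others by Dixon's criterion, where chance gives about 1 in 20. With MEKi at 72 h, *Acat2* was 277 CPM in replicate M4 and 193 to 201 in the others, *Fdft1* was 147 in M2 and 183 to 189 in the others, *Insig2* was 33.2 in M3 and 47.5 to 48.4 in the others, and *Scap* was 90.6 in M5 and 108 to 109 in the others. With DMSO at 24 h in XX cells, *Mvd* was 68.0 CPM in F9 and 42.4 to 45.5 in the others, *Idi1* was 10.5 in F4 and 7.74 to 7.92 in the others, and *Srebf2* was 55.7 in F4 and 68.8 to 71.2 in the others. With FGFRi at 24 h, *Hsd17b7* was 81.6 CPM in M4 and 56.8 to 60.7 in the others, *Dhcr7* was 83.3 in M1 and 59.7 to 62.5 in the others, and *Fads2* was 342 in M3 and 396 to 403 in the others. *Msmo1* was 139 CPM in XY DMSO 72 h replicate M6 and 99.3 to 104 in the others. *Srebf2* was 104 CPM in XX DMSO 72 h replicate F11 and 83.2 to 84.6 in the others. *Acly* was 166 CPM in MEKi 24 h replicate M4 and 111 to 113 in the others. *Fads2* was 184 CPM in uncultured XY replicate M5 and 219 to 224 in the others.

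For 3 members the same contrast differed between groups by an interaction in edgeR's quasi-likelihood test. The change over the first day was larger in XX than in XY cells for *Scap* (0.97 on the log2 scale, FDR 1.77e-04) and *Scd2* (0.81, FDR 2.67e-04). The difference between XX and XY cells moved from 24 h to 72 h for *Elovl6* (0.71, FDR 0.00676), and so did the effect of MEKi on *Elovl6* (0.64, FDR 0.0317). Both *Elovl6* results cross the sets of libraries.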

How the results depend on the processing

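Among the 78 calls of members over all comparisons, none changed direction under any alternative that was run. All 78 held under RLE scaling, without the filter on low counts and in DESeq2, 76 held with only the groups compared (lost were *Lss* for XX against XY uncultured and *Mvd* for FGFRi against DMSO at 72 h), 39 under glmTreat and 26 under voom with treat. Counts of called members moved by more than 1.5 times as follows. Under glmTreat they were 3, 1 and 0 for XX against XY uncultured, at 24 h and at 72 h, 17 in XY and 16 in XX cells for the first day, 1 for XX 72 h against 24 h, 0 for FGFRi against DMSO at 72 h, 1 for MEKi against FGFRi, 0 for FGFRi 72 h against 24 h and 0 for each of the 3 interactions. Under voom with treat they were 2, 0 and 0 between the sexes, 13 in XY and 10 in XX cells for the first day, 1 for XX 72 h against 24 h, and 0 for FGFRi against DMSO at 72 h, MEKi against FGFRi, FGFRi 72 h against 24 h and each interaction. Both tests ask for a fold beyond 1.5, which by construction calls fewer genes, and the voom fit also differs in its model and weights, whose share in its lower counts was not tested apart. The shares of all genes called by these tests are not given beside their counts. RLE scaling and DESeq2 gave 1 for XY 72 h against 24 h, DESeq2 gave 2 for FGFRi against DMSO at 72 h, and no filter gave 4 for the interaction of sex and the first day, and for these the cause was not tested.

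Same-numbered libraries did not deviate together in every pair (correlations of −0.156 to 0.116), so the numbers were not taken to pair the samples. The correlations were all positive for XX against XY uncultured (0.0384 to 0.114). They were also all positive for MEKi against DMSO at 24 h (0.0279 to 0.0996) and FGFRi against DMSO at 72 h (0.00215 to 0.116). Every other comparison with more than 1 pair had a negative value. Whether those samples were paired is not known, and results with a block follow. With the replicate number as a block, 56 of 65 calls held. Of the 9 lost, 5 were in the XX first day, where 21 of 26 held (*Fads2*, *Insig1*, *Sc5d*, *Srebf2* and *Tm7sf2* were lost), 2 were *Lss* and *Sc5d* for XX against XY uncultured, and the others were *Fdps* for MEKi against FGFRi and *Srebf1* for FGFRi 72 h against 24 h. Counts were 3 for XX against XY uncultured, 2 for FGFRi against DMSO at 72 h and 0 for FGFRi 72 h against 24 h. No paired analysis was possible because only 1 number is shared for XX against XY at 72 h and XX 72 h against 24 h, and the block was not fitted for the 3 interactions.

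With 1 library left out, counts ranged from 3 to 7, 2 to 3 and 1 to 4 between the sexes uncultured, at 24 h and at 72 h, from 25 to 27 in XY and 25 to 27 in XX cells for the first day, from 0 to 2 in XY and 2 to 6 in XX cells for 72 h against 24 h, and from 0 to 0 for MEKi at 24 h and at 72 h. They ranged from 0 to 2 and 0 to 1 for FGFRi against DMSO at 72 h and 24 h, from 3 to 4 for MEKi against FGFRi, from 1 to 1 for FGFRi 72 h against 24 h, and from 0 to 1 for the MEKi interaction, 2 to 4 for the interaction of sex and the first day and 1 to 3 for that of sex and 24 h to 72 h. *Idi1* and *Tm7sf2* had as few as 4 and 2 counts in an uncultured library, which limits what can be seen of them.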
